A study of Homo sapiens with 9 samples.

Results

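The response of MP41 cells to miR-16 was followed here at the earliest sampled times, 6 and 12 h after transfection. MP41 is a uveal melanoma (UM) cell line, grown in RPMI-1640 with serum, and cultures were transfected at 66 nM with either a mimic of miR-16 or miR-CTR, a mimic used as control. Of the 9 RNA sequencing libraries of the study, 4 belong to these times, 1 for miR-16 and 1 for miR-CTR at 6 h and the same at 12 h. A library labelled as control at 0 h, taken before transfection, was used as the starting point, and the libraries of 24 and 48 h served to show what followed. For each of the 14839 genes, the logFC was the log2 value with miR-16 minus the log2 value with miR-CTR at the same time, and a gene was called when it lay past 0.5 in the same direction at both 6 and 12 h. Since each mimic and time had 1 library from 1 line, the variation between cultures of the same time is unknown, the calls rest on the threshold and not on a test, and errors given with a logFC are counting standard errors (SE) only.

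A miRNA guides Argonaute proteins to messenger RNAs, mostly by pairing of its seed to the 3′UTR, and the bound messenger is destabilised and less translated. miR-16 belongs to the miR-15/16 family, whose members share a seed, is deleted in many chronic lymphocytic leukemias, and is best known for targeting cyclins and other regulators of the G1 phase. The mature sequences are shown because every site below derives from bases 2 to 8, printed in capitals. The family members come from RefSeq (GRCh38.p14), where miR-16 is encoded by MIR16-1 (chr13:50049027-50049048, reverse strand) and MIR16-2 (chr3:160404754-160404775, forward strand). The control sequence comes from the sequence table of the study. In that table the row named for biotinylated miR-16 holds this sequence, while the row named for biotinylated miR-CTR holds the one RefSeq gives for miR-16. The row names were therefore taken as swapped, and the transfected miR-CTR was assumed to carry the same sequence. Every statement on control-sequence sites rests on this assumption.
hsa-miR-16-5p: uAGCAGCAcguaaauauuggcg
hsa-miR-15a-5p: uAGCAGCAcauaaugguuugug
hsa-miR-15b-5p: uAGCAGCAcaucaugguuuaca
hsa-miR-195-5p: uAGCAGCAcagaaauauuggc
control sequence: uUGUACUAcacaaaaguacug

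A match to bases 2 to 8 in a 3′UTR is a 7mer-m8 (TGCTGCT for miR-16, TAGTACA for the control sequence), a match with an A added opposite base 1 is an 8mer (TGCTGCTA and TAGTACAA), and a match to bases 2 to 7 with that A is a 7mer-A1 (GCTGCTA and AGTACAA). Only the transcribed strand was searched, and an 8mer was counted once although it contains both 7mers. In the longest annotated 3′UTR, at least 1 of these sites was present for miR-16 in 29.2% and for the control sequence in 14.7% of the 11584 protein-coding genes with a 3′UTR.

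The 4 libraries held between 20260000 and 24860000 reads over the 14839 genes, with a median of 486 to 610 reads per gene, and their medians on the log2 scale lay between 9.13 and 9.15. All 8 melanocyte markers were present, and the premelanosome protein PMEL stood between 16.54 and 16.79 in the 4 libraries. Of 11 markers of immune, endothelial, epithelial and stromal cells, 9 were not among the 14839 genes. The other two were the collagen gene COL1A1, between 8.37 and 8.57, and LUM, between 7.02 and 7.36.

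Only a small number of genes passed 0.5 at both early times. At 6 h, 495 genes (3.34%) lay below −0.5 and 502 (3.38%) above 0.5, and at 12 h 376 (2.53%) and 491 (3.31%) did. Both times agreed for 60 genes with lower values (0.404% of all genes) and for 98 genes with higher values (0.66%), whereas 77 genes (0.519%) passed 0.5 in opposite directions. Weakly expressed genes made most of these. Among the 3709 genes of lowest mean log2 value (the lowest 25%), where the median counting SE of a logFC was 0.32 at 6 h and 0.3 at 12 h, 48 genes were lower, 80 were higher and 76 were opposite. Agreeing calls outnumbered opposite ones there, in a smaller ratio than among the other genes. Above this lowest 25%, 11130 genes remained, the median counting SE was 0.0681 and 0.0647, and 12 genes were lower (0.108%), 18 were higher (0.162%) and 1 was opposite (0.00898%).

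**Figure D1:**
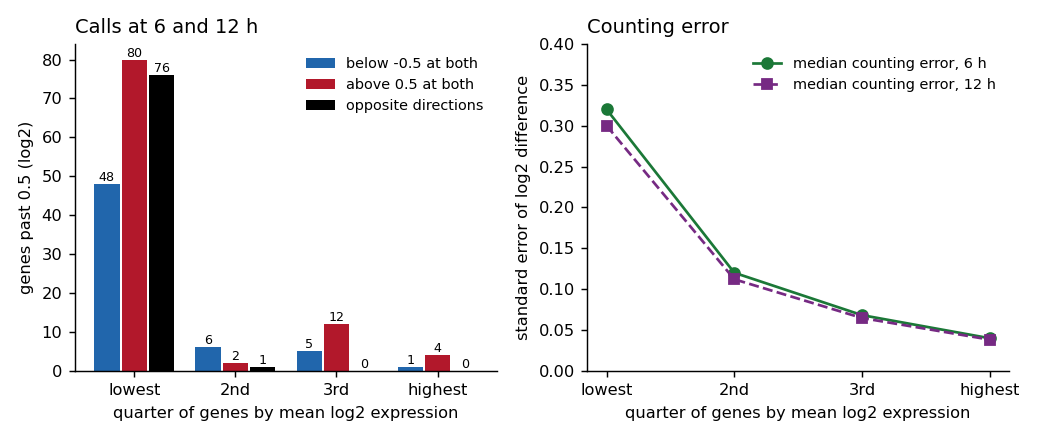
Left, genes past 0.5 (log2, miR-16 minus miR-CTR) at both 6 and 12 h, in 4 equal bins of mean expression over the 9 libraries, and bars are counts of genes. Right, the median counting standard error of the logFC in the same bins. The lowest 25% holds 76 of the 77 opposite genes and has the largest counting error.

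Across genes, which share the libraries and are not independent replicates, the logFC of 6 and 12 h had a Pearson correlation of 0.199 over all genes and of 0.352 above the lowest 25%. It was 0.125 in the lowest 25% and 0.287, 0.429 and 0.403 in the next bins of equal size. Above the lowest 25%, 19.4% of the 62 genes (0.557%) below −0.5 at 6 h were also below it at 12 h, where 0.854% of all these genes were. For higher values, 26.5% of the 68 genes (0.611%) above 0.5 at 6 h were above it at 12 h, against 0.916% of all. In the lowest 25% the same shares were 11.1% against 7.58% and 18.4% against 10.5%. The genes described next are the 12 and 18 above the lowest 25%.

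The libraries of the 2 mimics share their times, so the mean difference of 6 and 12 h was also fitted over all genes with time as a block in limma, with Benjamini-Hochberg adjustment. The spread in such a fit is how far the difference itself moved between times, not the spread between cultures. With the 4 early libraries, which leave 1 residual degree of freedom, 0 genes lower (0%) and 0 genes higher had an adjusted p under 0.05, and the smallest adjusted p was 0.581. At an unadjusted p under 0.05 there were 622 lower and 625 higher genes, 4.19% and 4.21% of all, and the 12 and 18 genes were among them. With the 24 and 48 h libraries added for the spread, which gives 2 residual degrees of freedom, 41 genes (0.276%) were lower and 47 (0.317%) higher. These included 10 of the 12, all but RPS18P12 (adjusted p of 0.0864) and CCNE1 (0.075), and 16 of the 18, all but CTGF (0.0706) and 1 clone-named gene (0.354). The calls of single genes thus depended on which libraries set the spread. The 12 and 18 genes had been called on the same early values that both fits use. Their presence among the genes with a small p is therefore not independent evidence.

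**Figure D2:**
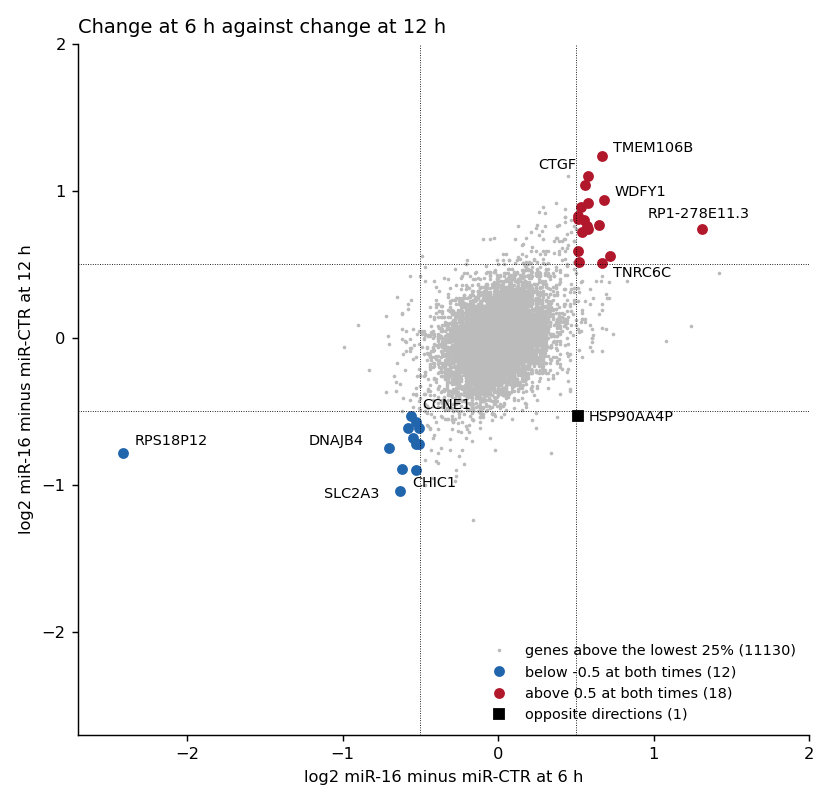
logFC (log2, miR-16 minus miR-CTR) at 6 h and at 12 h of the 11130 genes that remained without the weakly expressed ones, where each point is 1 gene and dotted lines mark −0.5 and 0.5. The 12 genes lower and the 18 genes higher at both times lie in opposite corners, and HSP90AA4P is the only gene in the lower right one.

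The 12 genes with lower values in the miR-16 libraries were 11 protein-coding genes and 1 pseudogene. They included a glucose transporter, a chaperone, a G1 cyclin, 2 regulators of the mTORC1 kinase and several Golgi proteins. Their median logFC was −0.56 at 6 h and −0.72 at 12 h, and 10 of the 12 were lower at 12 h than at 6 h. SLC2A3, which encodes the glucose transporter GLUT3, stood at 7.71 at 6 h and 7.79 at 12 h with miR-16, and at 8.34 and 8.83 with miR-CTR. Its logFC was −0.63 (SE 0.13) and −1.04 (SE 0.11), the lowest 12 h value among the 12. DNAJB4, a co-chaperone of HSP70, stood at 9.33 and 9.32 with miR-16 and at 10.03 and 10.07 with miR-CTR, a logFC of −0.70 (SE 0.07) and −0.75 (SE 0.07). Its values barely moved from 6 to 12 h in either series.

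CCNE1 encodes cyclin E1, the partner of CDK2 at the entry into S phase. It stood at 7.81 and 7.56 with miR-16 and at 8.37 and 8.09 with miR-CTR, with a logFC of −0.56 (SE 0.13) and −0.53 (SE 0.13). CDCA4, a cell cycle-associated cofactor of transcription, stood at 10.78 and 10.52 against 11.33 and 11.20, with a logFC of −0.55 and −0.68 and an SE of 0.05 at both times. Both were lower in the 2 miR-16 libraries than in any of the 3 control libraries of 0, 6 and 12 h. RRAGD, a Rag GTPase that brings mTORC1 to the lysosome, stood at 9.97 and 9.96 against 10.48 and 10.68 (logFC −0.51 and −0.72). SESN3, a sestrin that restrains mTORC1, stood at 9.05 and 9.56 against 9.58 and 10.13 (logFC −0.53 and −0.57). For SESN3 both series were higher at 12 h than at 6 h, and the miR-16 library of 12 h reached the miR-CTR library of 6 h to within 0.02.

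The remaining protein-coding genes were CHIC1, a membrane-associated protein (logFC −0.62 and −0.89), SLC9A8, a Golgi sodium/proton exchanger (−0.53 and −0.90), and TVP23B, a Golgi membrane protein (−0.53 and −0.72). Reads of TVP23B may be shared with its close paralog TVP23C. ACVR2B, a receptor of activins, had a logFC of −0.58 and −0.61, and GALNT7, an enzyme of O-linked glycosylation, of −0.51 and −0.61. RPS18P12, a processed pseudogene of a ribosomal protein gene, had the largest difference at 6 h, −2.41. Its miR-16 library of 6 h stood at 7.20, below the other 8 libraries, which ranged widely for this gene, from 7.55 at 24 h with miR-16 to 10.39 at 48 h with miR-CTR, and its reads may be shared with its parent gene.

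Sites for the miR-16 seed were present in 10 of the 11 protein-coding genes (90.9%), against 30.1% of the 9847 genes with a 3′UTR above the lowest 25%. The exception was RRAGD, whose 3420-base 3′UTR held a match to bases 2 to 7 alone (a 6mer). An 8mer was present in 4 of the 11 (36.4%), against 5.07% of all, namely in SLC2A3, DNAJB4, CDCA4 and CCNE1, and SLC9A8 and ACVR2B had 4 sites each. A control-sequence site was present in 1 of the 11, SESN3 (9.09%, against 15.2% of all). Sites of 7 of these genes are shown as examples, as 22 bases of the transcribed strand that end with the site, in capitals, with their position on GRCh38.
SLC2A3, chr12:7921309-7921330, reverse strand, bases 97 to 104 of the 3′UTR: aggacgcttctgaaTGCTGCTA
DNAJB4, chr1:78016699-78016720, forward strand, bases 466 to 473: atcaccttctgaaaTGCTGCTA
CDCA4, chr14:105010729-105010750, reverse strand, bases 468 to 475: ctataaacatccttTGCTGCTA
CCNE1, chr19:29824010-29824031, forward strand, bases 247 to 254: gtgcgtgctcccgaTGCTGCTA
CCNE1, chr19:29824248-29824269, forward strand, bases 485 to 492: aactgttttgtaagTGCTGCTA
CHIC1, chrX:73687003-73687024, forward strand, bases 6013 to 6019: ctccgaaactttcacTGCTGCT
TVP23B, chr17:18806220-18806241, forward strand, bases 668 to 674: ggaatacccagagatTGCTGCT
GALNT7, chr4:173322205-173322226, forward strand, bases 503 to 509: cttccttcacagtcaTGCTGCT

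The 18 genes with higher values in the miR-16 libraries were 16 protein-coding genes and 2 clone-named genes whose symbols could not be matched to the annotation. Several encode proteins of endosomes, lysosomes and membranes, and 2 are regulators of S phase. Their median logFC was 0.57 at 6 h and 0.79 at 12 h, and 14 of the 18 were higher at 12 h than at 6 h. TMEM106B, a lysosomal membrane protein, stood at 9.82 at 6 h and 10.16 at 12 h with miR-16, at 9.15 and 8.92 with miR-CTR and at 10.16 at 0 h. Its logFC was 0.67 (SE 0.08) and 1.24 (SE 0.08). The miR-16 library of 12 h thus had the value of the 0 h library, and the miR-CTR libraries lay 1.01 and 1.24 below it.

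CTGF, a secreted matricellular protein and a target of YAP, stood at 10.69 and 10.51 with miR-16, at 10.11 and 9.41 with miR-CTR and at 10.67 at 0 h, with a logFC of 0.58 (SE 0.06) and 1.10 (SE 0.06). WDFY1, an endosomal adaptor that binds phosphoinositides, stood at 11.68 and 11.73 with miR-16, at 11.00 and 10.79 with miR-CTR and at 11.69 at 0 h. The same order was seen for both, with the miR-16 libraries within 0.16 of 0 h and the miR-CTR libraries below it. Among the other membrane and signalling genes, MTMR6, a phosphoinositide phosphatase, had a logFC of 0.56 and 1.04. The palmitoyltransferase ZDHHC20 had 0.58 and 0.92, and CAV2, a caveolin, had 0.51 and 0.83. LAMTOR3, a subunit of the Ragulator that anchors Rag GTPases, had 0.51 and 0.81, and the kinase MAP3K2 had 0.54 and 0.72.

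Cyclin A2 (CCNA2), which drives S phase and entry into mitosis, and geminin (GMNN), the inhibitor of the replication licensing factor CDT1, were both higher with miR-16. CCNA2 stood at 11.97 and 11.59 with miR-16, at 11.42 and 10.79 with miR-CTR and at 11.60 at 0 h, with a logFC of 0.55 and 0.80. GMNN stood at 11.49 and 11.28 with miR-16, at 10.92 and 10.52 with miR-CTR and at 11.45 at 0 h, with a logFC of 0.57 and 0.76. Neither was past 0.5 at 48 h. The logFC of CCNA2 was 0.47 at 24 h and 0.00 at 48 h, and that of GMNN 0.78 and 0.33. TNRC6C, a GW182 protein of the miRNA silencing complex, had a logFC of 0.67 and 0.51. It was one of 4 genes of the 18 whose difference was not larger at 12 h. The clone-named genes had the largest values at 6 h, with a logFC of 1.31 at 6 h and 0.74 at 12 h for the first and of 0.72 and 0.56 for the other, RP11-290D2.6. The other protein-coding genes of the 18 were KLHL8, NUP37 (a nucleoporin), NR1D2 (the circadian repressor REV-ERBβ), POLR3E (a subunit of RNA polymerase III) and PIGS (a subunit that attaches GPI anchors), with logFC from 0.51 to 0.65 at 6 h and from 0.52 to 0.89 at 12 h.

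All 16 protein-coding genes of the 18 had a site for the seed of the control sequence in the 3′UTR (100%), against 15.2% of the genes above the lowest 25%. An 8mer for it was present in 5 of them (31.2%, against 2.32% of all), namely TMEM106B, MTMR6, CAV2, NR1D2 and MAP3K2, and MTMR6 had 7 sites. A miR-16 site was present in 3 of the 16 (18.8%, against 30.1%), LAMTOR3, MAP3K2 and TNRC6C, and none of these was an 8mer. With the 3′UTR of the longest coding transcript in place of the longest 3′UTR, 14 of the 16 had a control-sequence site and 9 of the 11 lower genes a miR-16 site. Examples are shown with the match to the control seed in capitals.
TMEM106B, chr7:12232237-12232258, forward strand, bases 276 to 283 of the 3′UTR: tgatacttcccctaTAGTACAA
CAV2, chr7:116506373-116506394, forward strand, bases 266 to 273: agacagttttgcttTAGTACAA
MAP3K2, chr2:127307281-127307302, reverse strand, bases 291 to 298: atagtcactcttttTAGTACAA
NR1D2, chr3:23979210-23979231, forward strand, bases 1805 to 1812: gatggtgatgtctgTAGTACAA
CTGF, chr6:131949032-131949053, reverse strand, bases 226 to 232: acagtggaactacatTAGTACA
NUP37, chr12:102074308-102074329, reverse strand, bases 40 to 46: caaactttgtattttTAGTACA
CCNA2, chr4:121817517-121817538, reverse strand, bases 115 to 121: cagaagttgtggccaAGTACAA
GMNN, chr6:24785925-24785946, forward strand, bases 141 to 147: accctattgcattaaAGTACAA

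The change since 0 h was then read in each series separately. Both use the same 0 h library, and no mock-transfected library was analysed here. For the 12 lower genes, the miR-16 values had a median distance from 0 h of −0.58 at 6 h and −0.57 at 12 h, and 11 and 10 of the 12 were below it. The median of their miR-CTR values lay at 0.04 and 0.23 from 0 h. SLC2A3 was the exception with 2 positive miR-16 values, 0.03 and 0.11 from 0 h, while with miR-CTR it stood 0.66 and 1.15 above it. For the 18 higher genes, the miR-CTR values were below 0 h for all 18 at both times, with medians of −0.55 and −0.77, and by more than 0.5 for 10 at 6 h and 15 at 12 h. The median miR-16 value of these 18 was 0.03 at both times, and 1, a clone-named gene, lay more than 0.5 above 0 h at 6 h and none did at 12 h.

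**Figure D3:**
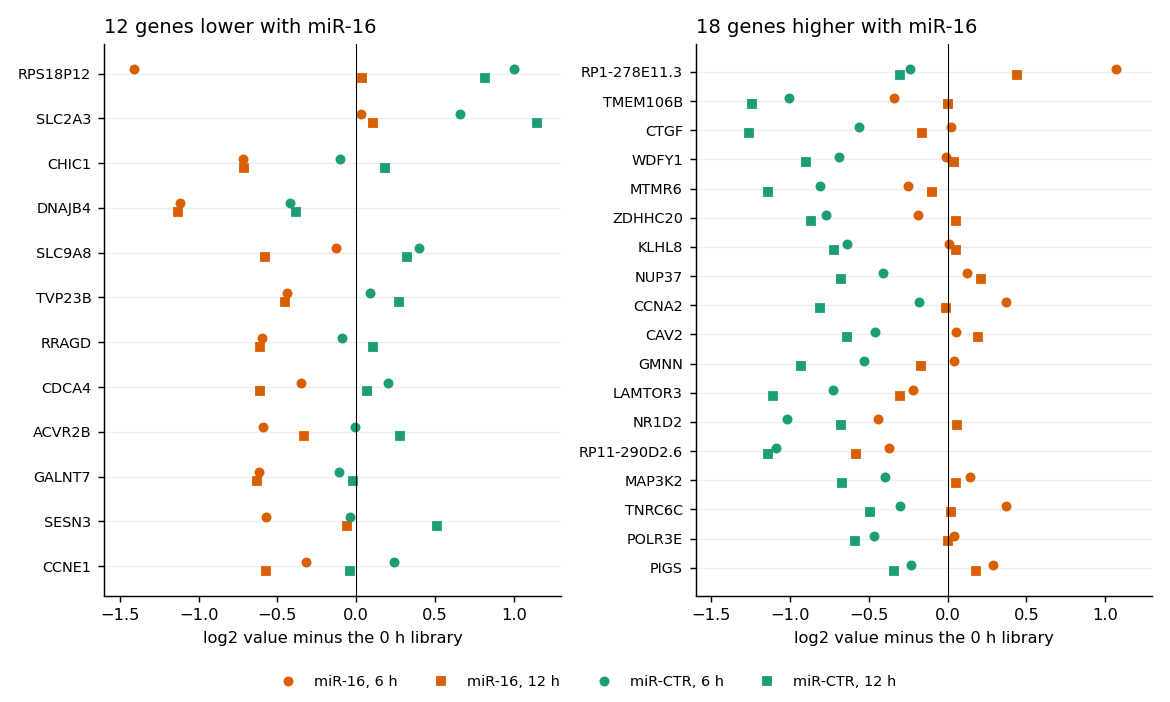
Value of each called gene (rows) in the 4 early libraries, as the log2 difference from the 0 h library; circles are 6 h, squares 12 h, and each point is 1 library. On the left the miR-16 points lie below 0 for all genes but SLC2A3 and the 12 h point of RPS18P12, and on the right the miR-CTR points lie below 0 for all 18 genes.

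Counted over all genes above the lowest 25%, 60 genes (0.539%) lay more than 0.5 below 0 h at both 6 and 12 h with miR-16 and 90 (0.809%) did with miR-CTR. Of those with a 3′UTR, miR-16 sites were present in 60.4% with miR-16 and in 34.2% with miR-CTR, against 30.1% of all genes above the lowest 25%. Control-sequence sites were present in 30.2% with miR-16 and in 63.3% with miR-CTR, against 15.2% of all. The share of control-sequence sites thus lay above that of all genes in both series. More than 0.5 above 0 h at both times were 19 genes (0.171%) with miR-16 and 37 (0.332%) with miR-CTR. Control-sequence sites were present in 2 of the 14 3′UTRs of the former (14.3%, near the 15.2% of all). They were present in all 16 of the genes called higher against miR-CTR. Whether the control sequence acts on these 3′UTRs was not tested.

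The shares of sites depended on the threshold. Past 0.2 at both times, 304 genes were lower (2.73% of the 11130), and 66% of those with a 3′UTR had a miR-16 site. This share was 77.1% for the genes past 0.3 (0.988% of the 11130), 91.7% past 0.4 (0.368%) and 90.9% past 0.5. On the other side, 277 genes were higher past 0.2 (2.49%), and 57.5% of their 3′UTRs had a control-sequence site. This share was 68.7% past 0.3 (0.97%), 75.6% past 0.4 (0.449%) and 100% past 0.5. Without the filter on expression, the 60 lower genes had a miR-16 site in 55.6% of 27 3′UTRs. The 98 higher genes had a control-sequence site in 52.4% of 42. In the lowest 25% alone, a miR-16 site was present in 31.2% of the 16 3′UTRs of lower genes. Of the 26 3′UTRs of higher genes there, 23.1% had a control-sequence site and 38.5% a miR-16 site. Over all genes with a 3′UTR, 29.2% had a miR-16 site and 14.7% a control-sequence site. Above the lowest 25%, the share with the other sequence's site lay below that of all genes at each threshold in both directions, from 8.33 to 10.4% for control-sequence sites in lower genes and from 18.8 to 24.4% for miR-16 sites in higher genes. Just outside the threshold of 0.5 were TNFSF9 (−0.62 at 6 h and −0.50 at 12 h), DYNC1I1 (−0.50 and −0.49) and PGM2L1 (−0.51 and −0.48), and just inside were GALNT7 and RRAGD. For higher values MRPS14 (0.50 and 0.74) was just outside and POLR3E (0.51 and 0.59) just inside.

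**Figure D4:**
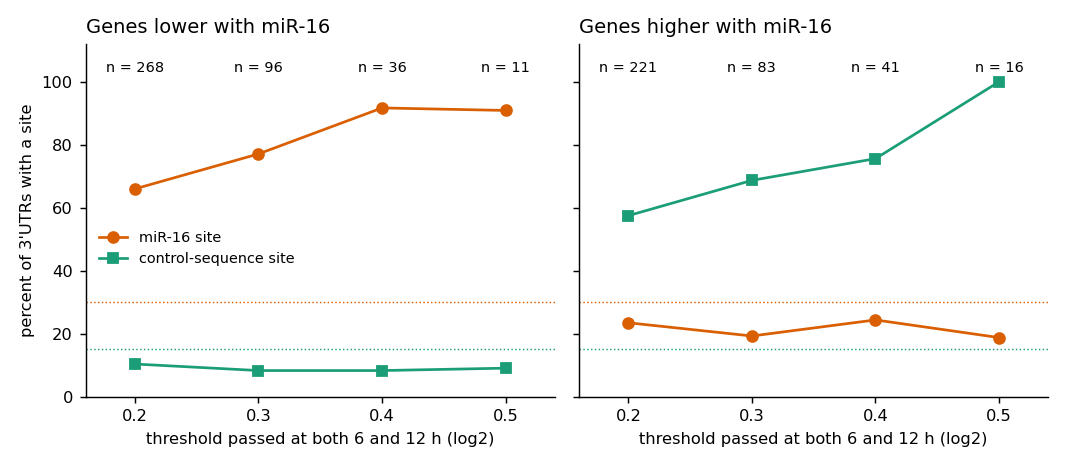
Percent of genes with a 3′UTR site for miR-16 (circles) or for the control sequence (squares) among genes past each log2 threshold at both 6 and 12 h, weakly expressed genes left out, with n the number of genes with a 3′UTR. Dotted lines give the shares of all 9847 genes. The miR-16 share lies above its dotted line on the left and below it on the right, and the control-sequence share the reverse.

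Over all 11584 genes with a 3′UTR, differences by the kind of site were small, and the 8mer stood furthest from 0 for both sequences. The 574 genes with an 8mer for miR-16 had a median logFC of −0.060 at 6 h and −0.090 at 12 h. The 2384 with a 7mer-m8 had −0.010 and −0.050, the 425 with a 7mer-A1 −0.030 at both times, the 2038 with a 6mer alone 0.010 and −0.010, and the 6163 with none 0.010 and 0.020. At 24 and 48 h the median of the 8mer genes was −0.180 and −0.150. For the control sequence, the 259 genes with an 8mer had a median of 0.040 at 6 h and 0.120 at 12 h, the 779 with a 7mer-A1 0.030 and 0.070, and the 670 with a 7mer-m8 0.000 and 0.040. The 1650 genes with a 6mer alone had 0.000 and 0.010, and the 8226 with none 0.000 and −0.020, so that the 7mer-m8 did not stand apart at 6 h. Of the 7mers of miR-16, the 7mer-A1 was the lower at 6 h and the 7mer-m8 at 12 h. The median counting SE of a single gene was 0.0882 at 6 h and 0.0834 at 12 h, so these medians describe groups of genes and not any one gene.

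**Figure D5:**
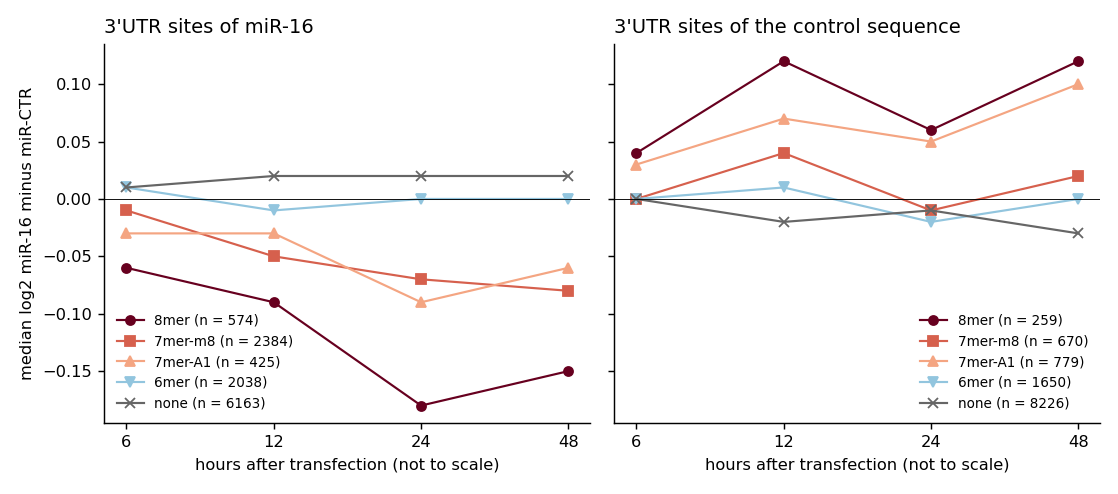
Median logFC (log2, miR-16 minus miR-CTR) of genes by the best 3′UTR site, for miR-16 (left) and the control sequence (right), at each time; points are medians over n protein-coding genes, with 1 library per mimic and time. At 6 and 12 h the 8mer genes of miR-16 have the lowest median and those of the control sequence the highest.

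More sites went with larger differences. The median early logFC, the mean of 6 and 12 h, was −0.030 for 2273 genes with 1 miR-16 site, −0.040 for 737 with 2 and −0.075 for 373 with 3 or more. For control-sequence sites it was 0.040 for 1392 genes with 1, 0.050 for 254 with 2 and 0.120 for 62 with 3 or more. The logFC also moved with transcript length, with a Spearman correlation of −0.0597 at 6 h and −0.131 at 12 h. Numbers of sites were not compared at equal length. The median difference between genes with and without a miR-16 site was −0.045, and −0.035 after centring within bins of 3′UTR length and expression. The 770 genes with sites for both sequences had a median early logFC of 0.010, between the 2613 genes with miR-16 sites only (−0.045) and the 938 with control-sequence sites only (0.070). The 7263 genes with neither stood at 0.005. Sites in the coding sequence alone went with a median early logFC of −0.005 for miR-16 (2436 genes above the lowest 25%), against −0.035 for sites in the 3′UTR and 0.015 for genes with neither.

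Genes with a single 8mer or 7mer-m8 for miR-16 were also split into 3 equal bins by the surroundings of the site. In the 623 genes with the most A and T within 30 bases of the site, the median early logFC was −0.060, against −0.020 and −0.015 in the other bins. In the 623 whose site lay closest to either end of the 3′UTR (up to 271 bases) it was −0.055, against −0.030 and −0.015. The length of the 3′UTR gave no such order, with −0.030, −0.040 and −0.030 from the shortest to the longest bin. The 92 genes with 4 bases matching positions 13 to 16 of miR-16 upstream of the site had a median of −0.050, and the 1776 without them −0.030. Across genes, the logFC also moved with the GC content of the transcript, with a Spearman correlation of 0.228 at 6 h and −0.125 at 12 h. Genes without a site were not split in this way. Whether the order by A and T belongs to the site or to the whole transcript was not tested.

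Without reference to either mimic, all 15682 7-mers present in enough 3′UTRs were ranked by the early logFC of the genes that carry them, after centring within bins of 3′UTR length and expression and with the difference in means divided by its spread over genes, used for ordering only. The lowest were the 7mer-m8 TGCTGCT and the 7mer-A1 GCTGCTA of miR-16, and the highest was the 7mer-A1 AGTACAA of the control sequence, followed by AAGTACA, which holds the 6mer, and by its 7mer-m8 TAGTACA. At 12 h alone the same 7-mers held these places. At 6 h alone AGTACAA was again the highest, but GCTGCTA ranked 17 and TGCTGCT ranked 843 from the lowest, behind 7-mers made of A and T such as TTTTAAA. The 7mer-m8 of the control sequence, TAGTACA, ranked 161 from the highest, behind 7-mers rich in G and C such as CCCTGCC. At that time the logFC also moved with the GC content of the transcript, with a Spearman correlation across 10389 genes of 0.228 at 6 h and −0.125 at 12 h. With a trend on GC content and length taken out of each logFC, an alternative added after the data were seen, 9 genes were lower and 18 higher above the lowest 25%. Only genes matched to the annotation entered this alternative. The clone-named genes were therefore not among these 18, which are not the same set as before.

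Genes called at only 1 of the 2 times differed between the times. Above the lowest 25%, 50 of the 62 genes below −0.5 at 6 h (0.557% of the 11130) were not below it at 12 h. Of these 50, 56% were protein-coding. Of the 68 genes above 0.5 at 6 h (0.611%), 50 were not above it at 12 h. Among these 50, 16% were protein-coding and 24 were pseudogenes, against 88.7% protein-coding among all 11130. Of the 95 lower (0.854%) and 102 higher genes (0.916%) at 12 h, 83 and 84 were not so at 6 h. Protein-coding genes made 91.6% and 83.3% of these. Of the 3′UTRs of these, 76.3% of the lower genes had a miR-16 site and 65.7% of the higher genes a control-sequence site. For the calls of 6 h alone the same shares were 40.7% (11 of 27 3′UTRs) and 25% (2 of 8), and 4 of these 8 higher genes had a miR-16 site. Above the lowest 25%, most of the genes called at both early times stayed past 0.5 later. At both 24 and 48 h, 10 of the 12 lower genes were past it, against 2.47% of all 11130. For the higher genes this was 15 of the 18, against 2.07%. In the lowest 25% this was 11 of 48 (22.9%) and 30 of 80 (37.5%), against 3.69% and 9.92% of the genes there. Genes that first passed −0.5 at 12 h and stayed there at 24 and 48 h numbered 52 of the 11130. A miR-16 site was present in 84% of their 3′UTRs. Those of 24 and 48 h only numbered 202 with 72%, and those of 48 h alone 554 with 32.7%, near the 30.1% of all. In the higher direction, the share of 3′UTRs with a control-sequence site was 70.8% for the 54 genes from 12 h on. It was 24.2% for the 154 of 24 and 48 h and 20.5% for the 393 of 48 h alone, against 15.2% of all. In both directions the later groups had to pass at fewer times. The first time and the number of times passed therefore cannot be told apart.

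Most known targets of the family did not pass 0.5 at both times. Of 24 measured genes reported as targets elsewhere, 22 had a miR-16 site, 16 (66.7%) had negative values at both times and 1, CCNE1, was called (0.404% of all genes were). Over all 14839 genes, 26.6% were negative and 28.3% positive at both times. The median of these 24 was −0.15 at 6 h and −0.21 at 12 h, with 0.00 for all genes at both. Cyclin D1 (CCND1) stood at 12.92 and 13.26 with miR-16 and at 13.33 and 13.69 with miR-CTR, with a logFC of −0.41 and −0.43 (SE 0.02 at both times). Both series were higher at 12 h than at 6 h, and the distance between them stayed within the counting error. The phosphatase CDC25A, which activates CDKs, had −0.47 and −0.83, the kinase WEE1, which holds CDK1 in check, −0.36 and −0.54, and cyclin D3 (CCND3) −0.12 and −0.61. The anti-apoptotic BCL2, a classical target of miR-16 in leukemia with an 8mer in its 3′UTR, had 0.03 and 0.16 (SE 0.10 and 0.09). JUN, which is on the same list but has no site, had 0.40 at both times.

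The 19 down-regulated RNAs that the study followed up were negative at both times in all cases, with medians of −0.37 and −0.76. Of these, 3 were called (SLC2A3, CHIC1 and DNAJB4), against 0.404% of all genes. This list was chosen by the study on these samples and is not independent evidence. Past −0.5 were 3 of the 19 at 6 h, against 3.34% of all genes, and 15 at 12 h, against 2.53%. CARD10 had −0.28 at 6 h and −0.97 at 12 h, ARL2 −0.27 and −0.94, and the acid sphingomyelinase SMPD1 −0.27 and −0.90. AMOT, the angiomotin that binds YAP, had −0.39 and −0.78. PYGB, the brain-type glycogen phosphorylase, is not on this list but on that of 14 glycogen genes, and stood at 13.38 and 13.36 with miR-16, at 13.17 and 12.95 with miR-CTR and at 13.26 at 0 h. Its logFC of 0.21 and 0.41 was under the threshold. The PYGB 3′UTR has a 7mer-A1 for the control sequence and none of the seed matches counted here as miR-16 sites. Pairing without a seed match was not searched for. The study reports predicted non-canonical (imperfectly paired) miR-16 sites in this 3′UTR, which gave more luciferase activity than their mutated versions. The study also reports higher PYGB mRNA and protein after miR-16 transfection in its UM lines.

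Of 27 regulators of the G1/S transition, 18 (66.7%, against 26.6% of all genes) had negative values at both times, with medians of −0.12 and −0.20. CCNE1 alone was called, while over all genes 0.404% were called lower and 0.66% higher. For 28 DNA replication genes the medians were −0.01 at 6 h and −0.10 at 12 h, none was called in either direction, and at 48 h the median was −0.76. For 26 mitosis genes they were −0.02 and −0.07, against −0.79 at 48 h, and CCNA2 was called in the higher direction. The CDK inhibitor CDKN1A had −0.18 and −0.53, with 1 miR-16 site. Of 19 p53 targets, 12 were negative at both times (63.2%, against 26.6% of all genes), with none called. Their medians were −0.11 and −0.06, and later 0.03 at 24 h and 0.14 at 48 h. A miR-16 site was present in 8 of the 19, against 29.2% of all genes with a 3′UTR.

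Among 22 genes of miRNA processing and silencing, TNRC6C was called higher and none lower, where 0.66% and 0.404% of all genes were. The decapping factors DCP1A (−0.24 and −0.64) and DCP2 (−0.47 and −0.38) had lower values without passing at both times. Of 12 ERK feedback genes none was called, and 9 had positive values at both times (75%, against 28.3% of all genes). The medians were 0.15 and 0.17. Of these 12, 4 had a control-sequence site and 3 a miR-16 site, against 14.7% and 29.2% of all genes with a 3′UTR. DUSP6, a phosphatase of ERK, had 0.24 and 0.59, while SPRED1, an inhibitor of RAS signalling with an 8mer for miR-16, had −0.37 and −0.53. Of 16 genes of YAP signalling and output, CTGF was called higher (0.66% of all genes were). CYR61 had 0.23 and 0.53 without a site for either sequence. Of 24 interferon response genes only IFI44 was called, at −0.98 and −0.89 (0.404% of all genes were called lower). It is in the lowest 25%, with an SE of 0.38 and 0.31, and the medians of the list were −0.09 and −0.01.

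In the remaining lists, the only gene called was SLC2A3 in the list of 20 genes of glycolysis and hypoxia. Over all genes, 0.404% were called lower. None was called among 13 NF-κB, 20 ATF4 and unfolded protein response, 21 cholesterol synthesis, 19 immediate early, 14 glycogen and 10 housekeeping genes, nor among the 8 melanocyte markers, whose logFC medians were 0.07 and 0.02. Of 6 RNAs that largely lack poly(A) tails, 5 were negative at both times, with medians of −0.29 and −0.14, and none was called. The cholesterol synthesis enzyme MSMO1 had −0.03 at 6 h and 0.68 at 12 h.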

How the data were processed

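Polyadenylated RNA of MP41 cells was sequenced by the authors, with 1 library per mimic and time. The submitters' processing notes name FastQC, STAR 2.4.0a, featureCounts and Subread 1.5.0-p3, and hg38 (GRCh38). The authors deposited log2 values with 2 decimals and a decimal comma. On the linear scale, every library showed a fixed step of which all its values up to 30 (100%) were multiples within rounding, the form log2(reads / size factor + 1). Reads were recovered with these steps and gave the counting SE. The calls come from no test. A limma fit of the log2 values with time as a block and a mean-variance trend, added after the data were seen, stands beside them. Values were used as deposited.

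A call needed a logFC past 0.5 at both 6 and 12 h, and the 25% of genes with the lowest mean over the 9 libraries were set apart. Gene symbols were matched to GENCODE release 29 (13002 of 14839, 87.6%, matched 1 gene), which is not stated to be the annotation of the files. Sites were exact matches in the longest annotated 3′UTR. Genes named are the called genes above the lowest 25% (at most 20 per direction), genes in opposite directions (at most 5), and genes of 20 lists. Genes just outside the threshold were named after their values were seen. Members, lists and rules were chosen with earlier results of these data known. Calling, the limma fit, the ranking of 7-mers and the recovery of reads were tested on simulated data. Alternatives were other thresholds, normalizations, filters, references, pseudocounts and definitions of a site. R 4.3.3 with limma 3.58.1, Python 3.11.15, pandas 2.3.3, numpy 2.4.6 and scipy 1.17.1 were used.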

Additional observations from a re-analysis of the deposited data

Results flagged for a closer look

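HSP90AA4P, a transcribed processed pseudogene of an HSP90 gene, was the only gene above the lowest 25% of expression whose logFC passed 0.5 in opposite directions at the 2 early times. It was 0.51 (SE 0.12) at 6 h and −0.53 (SE 0.12) at 12 h, a gap of 1.04. The miR-16 libraries stood at 8.39 and 7.80, the miR-CTR libraries at 7.88 and 8.33, and the 0 h library at 8.58. The difference between the times was not tested, since each value comes from 1 library, and reads of this pseudogene may be shared with its parent gene.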

How the results depend on the processing

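The labels give no replicate numbers, and the pairing by time is in each logFC. In all, 17 results other than those of single genes were recomputed, and of their 100 alternatives 44 moved less than the allowed spread, 56 moved more and 0 changed sign. For genes lower, higher and opposite at both early times (60, 98 and 77), a threshold of 1.5-fold gave 36, 52 and 47, a threshold of 0.3 gave 283, 355 and 285, leaving out the lowest 25% gave 12, 18 and 1, and a pseudocount of 16 gave 17, 33 and 7. With the 0 h library in place of miR-CTR they were 194, 252 and 31, and with a 95% counting interval asked for as well as the threshold 22, 44 and 9. By the mean of both times, 215 genes were lower and 302 higher, against 495 and 502 at 6 h alone, 376 and 491 at 12 h alone, 124 and 186 at 1.5-fold, and 41 and 59 without the lowest 25%. By an adjusted p under 0.05 in limma with time as a block, added after the data were seen, there were 0 and 0 with the 4 early libraries and 41 and 47 with 8.

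The alternatives to the counts and shares above the lowest 25% were added after the data were seen. Leaving out the lowest 10% in place of 25% gave 23 lower and 38 higher genes, leaving out the lowest 50% gave 6 lower genes, and the 0 h reference gave 60 lower genes. Counting 8mers only, the share with a miR-16 site was 18.5% in the 60 lower genes and 36.4% in the 12, and 0% in the higher genes with or without the lowest 25%, while the share with a control-sequence site was 0% in the 12 and 31.2% in the 18. Among all 60 lower genes the share with a miR-16 site was 55.6%, and 90.9% without the lowest 25%. With the trend on GC content and length taken out, 100% of 8 lower genes had a miR-16 site and 0% a control-sequence site. Of the 18 higher genes of that alternative, 94.4% had a control-sequence site and 27.8% a miR-16 site. The share of higher genes with a control-sequence site was 68.7% at a threshold of 0.3 and 14.3% against the 0 h library.

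The median early logFC of genes with a miR-16 site minus that of genes with none was −0.080 for 8mers only, −0.025 for the coding sequence, −0.030 at 6 h alone and −0.060 at 12 h alone. The correlation of 6 and 12 h across genes was 0.352 without the lowest 25%, 0.403 in the top 25% and 0.223 with the trend taken out. Of the genes past 0.5 early, 21 lower and 45 higher were also past it at 24 and 48 h, 11 and 21 at 1.5-fold, and 10 and 15 without the lowest 25%. Why these values moved was not tested, beyond the fewer genes or the other threshold of each alternative.

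Read against 0 h, 9 called genes changed sign in their early value: SLC2A3 to 0.07, TMEM106B to −0.17, CTGF to −0.07, MTMR6 to −0.18, ZDHHC20 to −0.07, GMNN to −0.07, LAMTOR3 to −0.26, NR1D2 to −0.19 and RP11-290D2.6 to −0.48. Quantile normalization left 55 of 55 named genes within the allowed spread. With the 0 h library as reference 12 of the 55 stayed within it, 34 moved more, and the rest were the 9 called genes above. At 6 h alone, and likewise at 12 h alone, 32 moved more and 23 stayed within it. Depth limits the lowest 25% of genes most, with a median of 36.1 to 45.9 reads.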
